A study of Mus musculus with 12 samples.

Results

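The miRNAs described here are 5 that lie in introns of Htr2c, the gene of the serotonin 2C receptor (miR-448, miR-1298, miR-1912, miR-764 and miR-1264), together with miR-204 and miR-211, which are abundant in choroid plexus. They are 7 of the 1090 annotated mouse miRNA names searched, and were chosen by their exact matches to the deposited tags and by how their counts moved together within a time course. The levels and the covariation given below therefore describe a choice already made from these counts. Over all libraries the 7 had 45643 counts on 107 distinct tags, which is 0.152% of the miRNA counts. miR-448 supplied 30295 of these counts, miR-1298 10975, miR-204 3311, miR-1912 595, miR-764 436, miR-1264 31 and miR-211 0. Of their 14 hairpin arms, 12 had at least 1 count, and 7 arms of 5 miRNAs had enough counts to be tested.

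Small RNA from the hippocampus of individual C57BL/6NCrl mice was sequenced as 12 libraries. Untreated mice (NT) gave 2 libraries, and mice taken 0.5, 1, 3, 6 or 24 h after electroconvulsive shock (ECS), a current that evokes a seizure, gave 2 libraries at each time. The suffix -1 marks libraries of the first time course (course 1) and -2 those of the second (course 2), 6 libraries each, so that NT-1 is the untreated library of course 1. Per the study's methods the mice were males of 6 to 8 weeks. Per the labels, a fraction of about 18 to 24 nt was collected from a gel before cloning. Whole hippocampus contains many cell types beside neurons.

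A miRNA is cut from a hairpin in its primary transcript, and either arm of the hairpin can yield a mature strand. Pairing of nucleotides 2 to 8 of that strand, the seed, with messenger RNAs guides their repression. Htr2c is transcribed in neurons and most strongly in the epithelium of the choroid plexus, the tissue of the brain ventricles that secretes cerebrospinal fluid and borders the hippocampus. A miRNA in an intron can be made from the transcript of its host gene. miR-204 and miR-211 lie in introns of Trpm3 and Trpm1, genes of related cation channels, and are known from the choroid plexus, the retinal pigment epithelium and melanocytes. In bulk RNA, fewer cells of a type and less RNA per cell cannot be told apart.

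The mature sequences are shown because they carry the seeds, from which members with common targets would be recognized. They are RefSeq entries of GRCm38.p6, with the seed in capitals.
miR-448 3′ arm: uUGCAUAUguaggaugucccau
miR-448 5′ arm: gAACAUCCugcauagugcugcc
miR-1298 5′ arm: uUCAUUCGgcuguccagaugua
miR-1298 3′ arm: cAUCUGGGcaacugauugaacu
miR-1912 3′ arm: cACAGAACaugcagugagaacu
miR-764 3′ arm: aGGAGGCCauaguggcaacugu
miR-1264 3′ arm: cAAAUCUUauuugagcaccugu
miR-204 5′ arm: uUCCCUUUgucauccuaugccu
miR-204 3′ arm: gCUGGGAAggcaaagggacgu
miR-211 5′ arm: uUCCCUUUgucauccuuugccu
The 5 Htr2c miRNAs share no seed with one another. The 5′ arms of miR-204 and miR-211 carry the same seed, UCCCUUU, and differ at 1 of 22 nucleotides, A17U (base in miR-204, position from the 5′ end, base in miR-211). Among the 1738 mature mouse entries of the table, miR-7670 3′ is the other one with this seed. A read of the miR-204 5′ arm that reaches position 17 can thus be told from miR-211, and no count of a member came from a tag that matched another miRNA.

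On GRCm38 all 7 hairpins lie within introns on the plus strand, as does the host gene in each case, and none overlaps an exon of its host. Htr2c spans 146962513 to 147197277 of chromosome X. In transcript Htr2c-201, which has 6 exons, intron 2 (146981606 to 147072384) holds Mir764 (147002259 to 147002366), Mir1912 (147009441 to 147009527), Mir1264 (147010601 to 147010686) and Mir1298 (147064905 to 147065002). Mir448 (147158210 to 147158321) lies in intron 4. The 5 hairpins span 156063 bp, and the closest neighbours, Mir1912 and Mir1264, are separated by 1073 bp. Mir204 lies at 22750605 to 22750672 of chromosome 19 in Trpm3, and Mir211 at 64205806 to 64205911 of chromosome 7 in Trpm1. A predicted miRNA gene in Htr2c without a miRNA name, Gm22650 (146999405 to 146999509), had 232 counts, of which 69 were in NT-1, and a second one, Gm24627, had 0.

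The accepted reads numbered 1897490 to 7657222 per library and the reads matching miRNA hairpins 439362 to 4282033. Tags of 18 or 19 nt carried 51.4% of the miRNA reads in NT-1 and 0.911% to 16.9% in the other 11 libraries. Normalized abundance is given as counts per 1000000 miRNA counts (CPM) after TMM scaling, whose factors ran from 0.649 to 1.89.

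miR-448 was the most abundant member, with 99.9% of its counts on the 3′ arm (30265 against 30 on the 5′ arm). In course 1 the 3′ arm ranged from 244 CPM in 0.5h-1 to 3705 CPM in NT-1, with a median of 620. In course 2 it ranged from 120 CPM in 3h-2 to 4321 CPM in 24h-2, with a median of 599. A single library thus stood high in each time course, an untreated one in the first and the 24 h one in the second, while the other 5 lay between 244 and 880 CPM in the first and between 120 and 906 CPM in the second. The ratio of the highest to the lowest library was 15.2 in course 1 and 35.9 in the second.

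miR-1298 came mainly from the 5′ arm, with 9979 counts against 996 on the 3′ arm. The 5′ arm was at 470 CPM in NT-1, 163 in 0.5h-1, 183 in 1h-1, 4151 in 3h-1, 47.1 in 6h-1 and 150 in 24h-1. In course 2 it was at 24.6 CPM in NT-2, 159 in 0.5h-2, 29.0 in 1h-2, 10.8 in 3h-2, 12.8 in 6h-2 and 656 in 24h-2. The 3h-1 library was highest of all 12 for this arm and its counterpart 3h-2 was lowest. The 5302 counts in 3h-1 were 53.1% of the counts of this arm over all libraries. The 3′ arm of the same hairpin did not stand high in 3h-1, where it was at 24.3 CPM, within the range of the other libraries of that time course (19.5 to 135 CPM).

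miR-1912 was detected in 9 libraries and nearly always as the 3′ arm (593 of 595 counts). The 3′ arm was at 62.9 CPM in NT-1, 4.29 in 1h-1 and 6.26 in 3h-1, and had 0 counts in 0.5h-1, 6h-1 and 24h-1, each of which allows up to 3 counts. In course 2 it was at 101 CPM in 24h-2, 40.2 in 0.5h-2 and between 0.722 and 7.0 CPM in the other 4 libraries. NT-1 and 24h-2 were thus again the highest of their time courses, as for miR-448.

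miR-764 had 431 of its 436 counts on the 3′ arm, which ranged from 0 (6h-1) to 23.7 CPM (NT-1) in course 1, with a median of 8.36. In course 2 it ranged from 3.5 CPM (6h-2) to 38.9 CPM (0.5h-2), with a median of 13.3. Its highest library in course 2, 0.5h-2, was thus not the highest one of miR-448. miR-1264 had 31 counts, all in course 2, of which 13 were in 24h-2, and the 6 libraries of course 1 each had 0.

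miR-204 yielded both arms in similar amounts, 1396 counts from the 5′ arm and 1915 from the 3′ arm. The 5′ arm ranged from 3.25 CPM (6h-1) to 28.0 CPM (NT-1) in course 1, with a median of 12. In course 2 it ranged from 25.7 CPM (6h-2) to 222 CPM (24h-2), with a median of 41.0. The 3′ arm ranged from 11.2 (NT-1) to 51.8 CPM (24h-1) in the first, median 24.6, and from 14.0 (6h-2) to 262 CPM (24h-2) in the second, median 53.2. The 24h-2 library was the highest for both arms. After TMM scaling NT-1, the highest for miR-448 in its time course, was the lowest for the 3′ arm of miR-204. It lay close to 3h-1 (11.7 CPM), with 18 counts against 15. Before TMM scaling 3h-1 was the lower of them, with fewer counts from more miRNA reads (1501135 against 1067773).

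miR-211 had 0 counts in all 12 libraries on both arms, and also 0 when only the first 18 nt of a tag had to match. A count of 0 allows up to 3 counts. With 439362 to 4282033 miRNA reads in a library, this limit was between 0.701 and 6.83 CPM without TMM scaling. Where miR-204 was highest, 24h-2, the 5′ arm of miR-204 had 654 counts and miR-211 had 0.

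**Figure D1:**
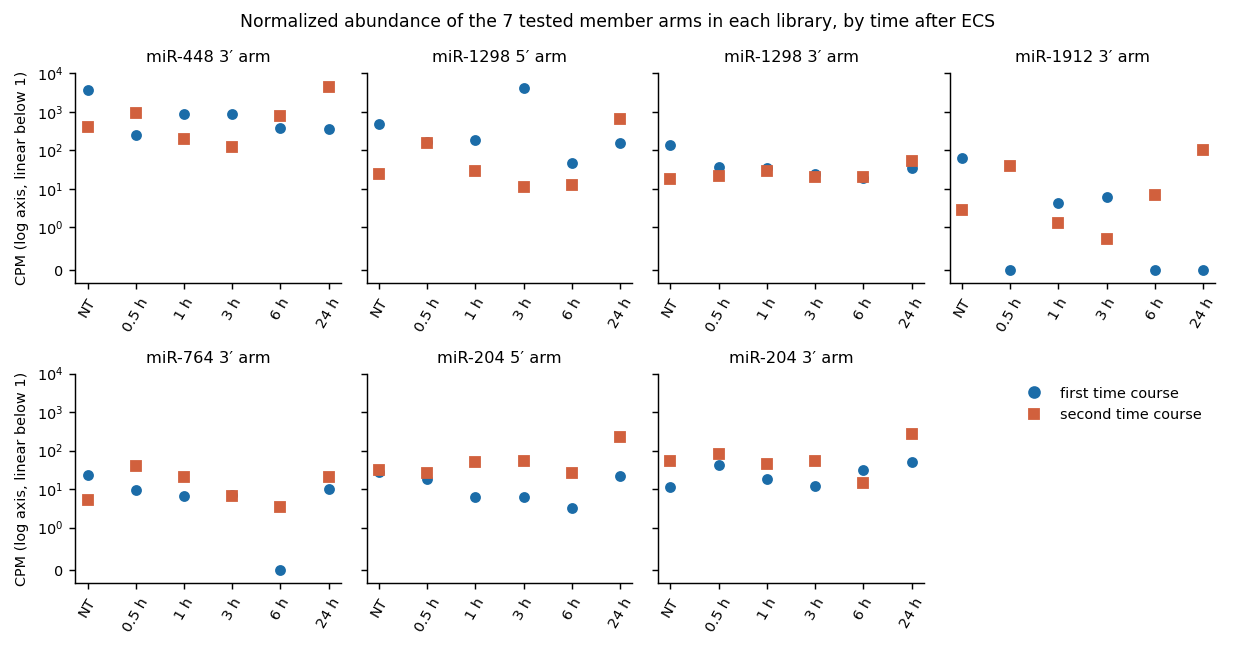
Normalized abundance (CPM, logarithmic axis that is linear below 1) of the 7 tested arms by time after ECS, with 1 point per library, circles for the first and squares for course 2. NT-1 (3705 CPM) and 24h-2 (4321 CPM) stand above the other libraries for miR-448, 3h-1 (4151 CPM) does so for the 5′ arm of miR-1298, and 24h-2 does so for both arms of miR-204.

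The covariation of the members within a time course was one of the grounds on which they were chosen and carries no test. It was measured on log2(CPM + 1) over the 6 libraries of a time course, and since the arms compared come from the same libraries they share their depth. The 3′ arms of miR-448 and miR-1912 moved most closely together, with Pearson's r = 0.985 and Spearman's rho = 0.880 in course 1 and r = 0.946 and rho = 1.00 in the second. Without the 2 libraries farthest from the median of miR-448 (NT-1 and 0.5h-1, then 24h-2 and 3h-2), r was 0.989 and 0.862. This pair therefore did not rest on NT-1 or 24h-2. In course 1, 3 of the 6 points of miR-1912 were at 0, and 1h-1 and 3h-1 had 11 and 8 counts. Without NT-1 the r of course 1 thus rested on few counts.

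The other Htr2c members followed miR-448 less closely. For the 5′ arm of miR-1298, r with miR-448 was 0.454 (rho 0.600) in course 1 and 0.831 (rho 0.771) in the second, and without the 2 farthest libraries 0.677 and 0.308. For the 3′ arm of miR-1298, r was 0.756 (rho 0.257) and 0.647 (rho 0.371), but 0.213 and -0.660 without those libraries. For the 3′ arm of miR-764, r was 0.499 (rho 0.0857) and 0.311 (rho 0.200), and 0.411 and -0.0642 without them. The relations of the 3′ arm of miR-1298 to miR-448 rested on NT-1 and 24h-2, without which r was -0.180 and -0.323.

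Over all 6 libraries of the first time course, miR-204 moved against miR-448 with its 3′ arm only. In the second both its arms had a positive r, which turned negative without 24h-2. For its 3′ arm, r was -0.857 (rho -0.886) in the first and 0.529 (rho 0.486) in the second, and -0.912 and -0.161 without the 2 farthest libraries. For its 5′ arm, r was 0.258 (rho 0.0857) and 0.499 (rho -0.0857), and -0.301 and -0.977 without them. Without 24h-2 alone, r in course 2 was -0.984 for the 5′ arm and -0.240 for the 3′ arm. Scaling by total counts moved the r of the 3′ arm in course 1 from -0.857 to -0.540. The 2 arms of miR-204, cut from 1 hairpin, had r = 0.128 (rho -0.0857) with each other in course 1 and 0.792 (rho 0.600) in the second, and 0.966 and -0.789 without the 2 libraries farthest from the median of the 5′ arm.

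Over the 21 pairs of the 7 arms, the median r was 0.454 in course 1 and 0.647 in the second. The median over all pairs of tested arms was 0.0432 and 0.0202. Leaving out 24h-2 lowered the second value to 0.185, and leaving out NT-1 lowered the first to 0.0750. For miR-448 and miR-1912 the lowest r was 0.948 in the first and 0.883 in course 2, whichever library was left out.

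**Figure D2:**
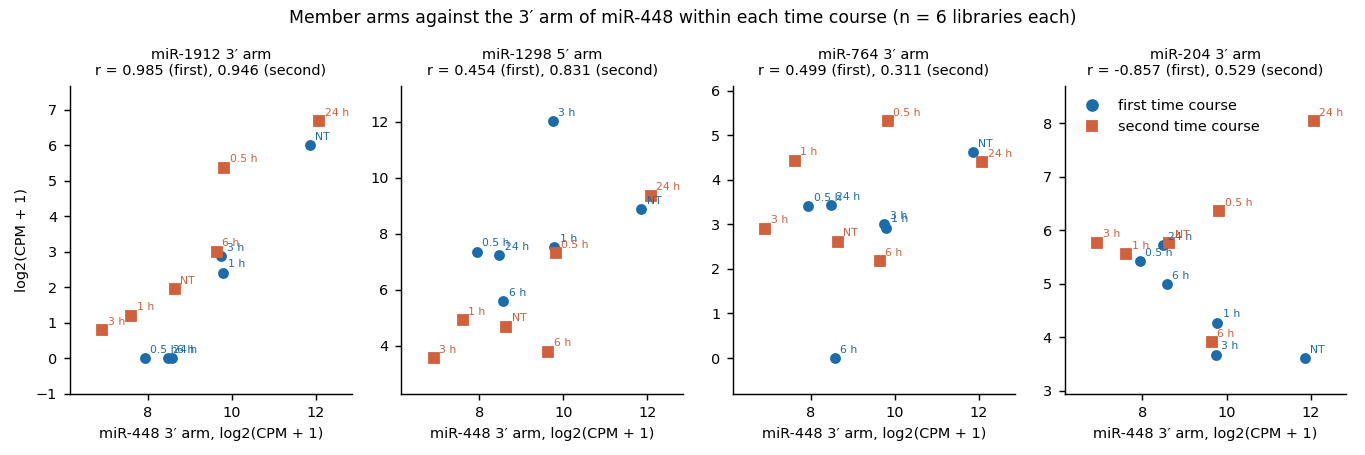
log2(CPM + 1) of 4 member arms against that of the 3′ arm of miR-448, with 1 point per library labelled by time and coloured by time course. The points of miR-1912 rise with miR-448 in both time courses (r = 0.985 and 0.946), whereas those of the miR-204 3′ arm fall in the first (r = -0.857) and rise in the second (r = 0.529).

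Among 213 arms of other miRNAs with a mean of at least 50 CPM, the 5 most like miR-448, ranked by the lower of the within-course r values, were miR-24 3′ (r = 0.856 in the first and 0.804 in the second), miR-136 3′ (0.623 and 0.525), miR-872 5′ (0.691 and 0.474), miR-144 3′ (0.433 and 0.533) and miR-15b 5′ (0.617 and 0.432). miR-24 had 1217 to 3907 CPM, a range much narrower than that of miR-448. By the same measure, the members differed in how many of these other arms lay above them. The number was 0 for miR-1912 3′, 1 for miR-1298 3′, 3 for miR-1298 5′, 17 for miR-764 3′, 20 for miR-204 5′ and 190 for miR-204 3′. These numbers describe the choice and test nothing, since the members were chosen partly by this covariation. Other arms below a mean of 50 CPM were not ranked, whereas the members did not have to reach it. miR-1912 3′ averaged 12.2 CPM in course 1 and 25.5 CPM in course 2.

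Markers of other cell types were read in the same libraries. The epithelial list (miR-34, miR-449 and miR-200 families) had counts for 8 of 10 members, with miR-449c and miR-141 at 0, and most of its level came from miR-34c. Its summed level ran from 2044 to 8966 CPM in course 1 and from 2009 to 29882 CPM in the second. It was high in 0.5h-2 and 24h-2 but low in NT-1 (2635 CPM), and its r with miR-448 was -0.413 and 0.579. Its members did not all move with the sum: miR-200a, at 10.6 CPM in NT-1, lay between 0.933 and 3.91 CPM in the other libraries of course 1. For the 5 neuronal markers, all with counts, the range was 107316 to 198179 and 78823 to 243061 CPM, and r was 0.749 and 0.0189. Within this list miR-124a was highest of course 1 in NT-1 (174126 CPM, others 31218 to 76822), whereas miR-128 was lowest there (17788 CPM, others 47099 to 80086). r was -0.602 and -0.0811 for oligodendrocytes (2 of 2 with counts), 0.489 and 0.227 for blood cells (5 of 5), -0.380 and -0.402 for vessels (3 of 3), -0.932 and 0.170 for mesenchyme (2 of 2) and -0.775 and -0.220 for muscle (4 of 4). In course 1 these sums came mostly from miR-219a, miR-142, miR-143, miR-199a and miR-1a, in the order of the lists. Within the blood list miR-144 was highest of course 1 in NT-1 (1303 CPM), whereas miR-451a (3.11 CPM) and miR-486 (18.1 CPM) were lowest there. Within the vessel list 3h-1 was highest of course 1 for miR-143 (164905 CPM) but lowest for miR-145a (57.2 CPM). miR-214 of the mesenchyme list had 7 counts in all. The part of these cell types in the levels of the members was not tested.

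To ask whether the members responded to ECS, each time was compared with the untreated libraries in a fit of all 470 tested arms (quasi-likelihood test of edgeR, p adjusted by Benjamini-Hochberg). None of the 7 member arms passed the threshold of 0.05 at a single time. Of all arms, 0% passed in each of the 5 comparisons. Unadjusted p lay under 0.05 for 9 arms after 0.5 h, 2 after 1 h, 10 after 3 h, 9 after 6 h and 8 after 24 h, none of them a member. DESeq2 called 1 arm at 0.5 h and 2 at 3 h, again no member. These p-values measure the spread between the 2 libraries of a time, pooled over all groups of the fit. At each time 1 library came from course 1 and 1 from course 2. The spread thus holds the difference between the time courses as well as that between mice.

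The 3′ arm of miR-448 was at 2052 CPM ± 2338 (SD, n = 2) in untreated mice, NT-1 being at 3705 and NT-2 at 399. After ECS its mean was 575 ± 468 after 0.5 h and 538 ± 484 after 1 h, then 490 ± 523 after 3 h, 590 ± 297 after 6 h and 2339 ± 2803 after 24 h (SD, n = 2 each). The groups overlapped at every time. The log2 fold changes were -1.83 (standard error 1.5), -1.93 (1.5), -2.07 (1.51), -1.80 (1.5) and 0.19 (1.45) in order of time. Without NT-1 the first 4 became 0.53, 0.43, 0.30 and 0.57, so that their direction rested on this library.

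The fold changes of the 7 arms at the 5 times, 35 in all, ran from -3.55 to 3.07 on the log2 scale with standard errors of 1.01 to 2.52. Of these, 25 lay below 0 and 10 above. In order of time, the median over the 7 arms was -0.62, -1.22, -1.07, -1.95 and 0.63, beside 0.16, -0.0044, 0.15, 0.0042 and 0.23 over all arms. Without NT-1 the medians of the members were 0.70, 0.43, 0.29, 0.11 and 1.92, so that the sign of the first 4 rested on this library. The 5 comparisons share the untreated libraries. The highest was that of the miR-1298 5′ arm at 3 h (3.07, standard error 1.97, adjusted p = 0.999 in edgeR with Benjamini-Hochberg adjustment). It came from 4151 CPM in 3h-1 against 10.8 in 3h-2, and was -5.02 without 3h-1. The lowest unadjusted p of a member was 0.0692, for miR-764 3′ at 6 h in the edgeR fit (log2 fold change -2.88, standard error 1.45, adjusted p = 0.994). It was at 0 and 3.5 CPM at 6 h (0 and 3 counts) and at 23.7 and 5.12 CPM in untreated mice. These groups did not overlap, as in 3 of the 35 comparisons, the others being miR-204 5′ at 0.5 and 6 h. Groups of 2 libraries can separate without a difference, and the share over all arms was not counted. The 3′ arm of miR-204 at 24 h had a log2 fold change of 2.28 (standard error 1.23, adjusted p = 0.989 in edgeR). It was at 51.8 and 262 CPM at 24 h against 11.2 and 53.0 CPM, and the groups overlapped.

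Between the time courses, 32.1% of the 470 arms (151) were called at an adjusted p under 0.05 with the time point in the fit (same test and adjustment in edgeR), 92 higher and 59 lower in course 2. With scaling by total counts the split was 49 higher and 114 lower. Of the 7 member arms 1 passed, the 5′ arm of miR-204. Its mean level was 13.9 CPM ± 10.1 (SD, n = 6) for course 1 against 68.3 ± 76.3 (SD, n = 6) for course 2, where it was higher at 6 of 6 time points, although the ranges overlapped. The log2 fold change of this arm came to 2.17 (standard error 0.59), at an adjusted p of 0.0142 in edgeR, while the median of all arms was 0.29. With scaling by total counts the median of all arms was -0.30 and the fold change of miR-204 5′ was 1.56 (adjusted p = 0.0514 in edgeR), on the other side of the threshold. The member called with that scaling was instead the 5′ arm of miR-1298 (log2 fold change -3.07, adjusted p = 0.0463 in edgeR). The call of miR-204 5′ was also lost when 1h-1, 3h-1, 1h-2, 3h-2 or 24h-2 was left out (adjusted p = 0.0592 to 0.0671 in edgeR, log2 fold change 1.72 to 1.97). With the time point in the fit, a library left alone at its time says almost nothing about the time courses. Leaving out either library of a time point therefore gives nearly the same fit, here and below.

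The 3′ arm of miR-204 had a log2 fold change of 1.40 (standard error 0.54, adjusted p = 0.0622 in edgeR) and was higher in course 2 at 5 of 6 time points. That of the miR-1298 5′ arm was -2.29 (standard error 1.17, adjusted p = 0.136 in edgeR), from 861 CPM ± 1618 (SD, n = 6) to 149 ± 255 (SD, n = 6), with lower values in course 2 at 5 of 6 time points. Without 24h-1 or 24h-2 the miR-1298 5′ arm was called (log2 fold change -3.14 and -3.45, adjusted p = 0.0470 and 0.0165 in edgeR). DESeq2 put both of these arms past the threshold (adjusted p = 0.0207 and 0.00897), as it did 223 of all 470 arms. The log2 fold changes of the remaining 4 arms, miR-448 3′ (-0.38, standard error 1.03), miR-1298 3′ (-0.56, 0.52), miR-1912 3′ (0.79, 2.04) and miR-764 3′ (0.76, 0.68), had adjusted p between 0.399 and 0.792 in edgeR. The median over the 7 was 0.76, or 0.088 with scaling by total counts, and fell below 0 when 0.5h-1 (-0.49), 24h-1 (-0.73), 0.5h-2 (-0.50), 6h-2 (-0.19) or 24h-2 (-0.96) was left out. It was 1.22 without NT-1.

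**Figure D3:**
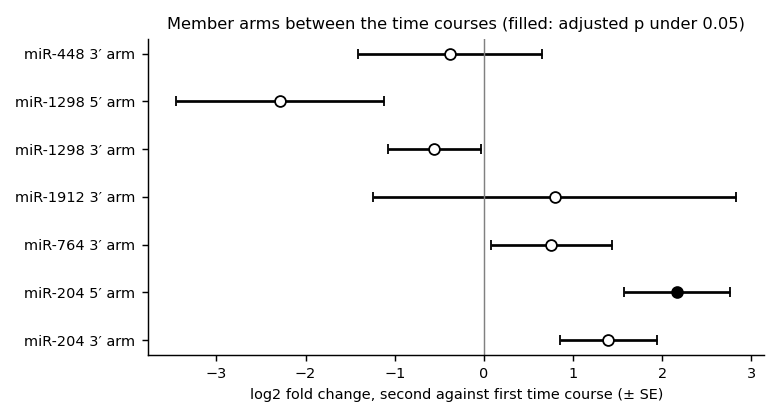
log2 fold change of the 7 tested arms, second against first time course, with bars of 1 standard error and filled points for an adjusted p under 0.05. The 5′ arm of miR-204 (2.17) is the filled point, and the 5′ arm of miR-1298 lies at -2.29.

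A ratio taken within a library does not depend on the scaling between libraries. Both arms summed, the log2 ratio of miR-1298 to miR-448 had a mean of -1.01 ± 1.85 (SD, n = 6) for course 1 against -2.74 ± 1.05 (SD, n = 6) for course 2, where it was lower at 5 of 6 time points (two-sided exact permutation test, swapping the libraries of a time point in all 64 ways, p = 0.0625). In 3h-1 alone miR-1298 exceeded miR-448, with a log2 ratio of 2.28. The ratio of miR-204 to miR-448 averaged -4.17 ± 1.85 and -2.33 ± 1.52 (SD, n = 6 each, exact permutation p = 0.25). It was lowest in NT-1 (-6.55) and highest in 3h-2 (-0.17), where miR-204 nearly equalled miR-448. For miR-1912 and miR-764, with 3 and 1 libraries at 0, the differences between the time courses were 2.00 and 1.06 on the log2 scale with a pseudocount of 0.5 counts, and 0.76 and 0.57 with one of 5. miR-1264 was at 0 in 7 libraries, all 6 of course 1 among them, and its difference followed the pseudocount (2.32 with 0.5 and 0.36 with 5). The adjusted p was 0.337 for each of these 5 ratios (exact permutation test, Benjamini-Hochberg over the 6 planned ratios, of which that of miR-211 holds no counts), and the smallest p this design allows is 0.03125.

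The members were chosen from counts per arm and library, though not by a comparison of the time courses. The balance of the arms could be followed in every library for miR-448, miR-1298 and miR-204, which had at least 20 counts in each. The minor arm of miR-1298 (3′) held 22.2% of the counts in NT-1, 18.7% in 0.5h-1, 16.2% in 1h-1, 0.581% in 3h-1, 29.3% in 6h-1 and 18.7% in 24h-1. In course 2 it held 42.5% in NT-2, 11.9% in 0.5h-2, 50.2% in 1h-2, 65.1% in 3h-2, 60.7% in 6h-2 and 7.61% in 24h-2. The share of the 3′ arm was lowest in 3h-1 and 24h-2, where the 5′ arm, the larger part of the total, was highest, and the low share in 3h-1 came with an unremarkable level of the 3′ arm itself (24.3 CPM). In 3 libraries of course 2 the arm named minor held more counts than the other. The Wilson 95% intervals were 0.410% to 0.824% in 3h-1 and 54.6% to 74.3% in 3h-2, and cover counting error only.

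For miR-204, the 5′ arm held between 9.52% (6h-1) and 71.4% (NT-1) in course 1 and between 24.4% (0.5h-2) and 64.7% (6h-2) in the second. NT-1 rests on 63 counts (Wilson 95% interval 59.3% to 81.1%). For miR-448 the 5′ arm held at most 0.415% in any library. The difference between the time courses was 22.1 percentage points for miR-1298 (exact permutation test, two-sided, p = 0.125), 12.4 for miR-204 (p = 0.375, exact) and -0.015 for miR-448 (p = 1, exact). Leaving out a pair of libraries gave 13.6 (without 3 h) to 28.7 for miR-1298 and 3.78 (without 6 h) to 21.5 (without the untreated pair) for miR-204. The p-values adjusted over the 3 miRNAs were 0.375, 0.562 and 1, and none passed.

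**Figure D4:**
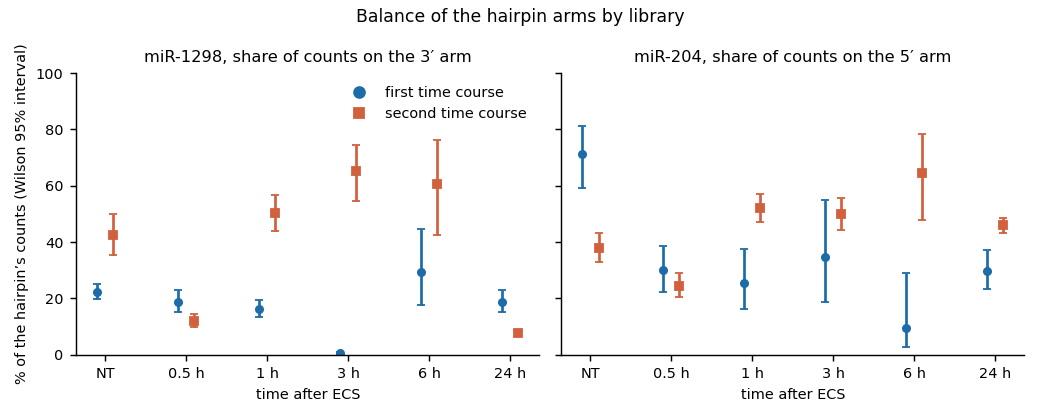
Share of the counts of miR-1298 on the 3′ arm and of miR-204 on the 5′ arm, in percent, by time after ECS, with 1 point per library and Wilson 95% intervals for counting error. The share of miR-1298 was 0.581% for 3h-1 and 65.1% for 3h-2, the same time after ECS.

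The ends of the tags were read for each arm. The most abundant tags are printed as deposited, with nucleotides 2 to 8 in capitals, because their ends fix the seed and differ from the RefSeq entries for some members.
miR-448 3′ arm, most abundant tag: tTGCATATgtaggatgtccca
miR-448 3′ arm, most abundant tag that differs from the hairpin after nucleotide 18: tTGCATATgtaggatgtccct
miR-1298 5′ arm, most abundant tag: tTCATTCGgctgtccagatg
miR-1298 3′ arm, most abundant tag: cATCTGGGcaactgattga
miR-764 3′ arm, most abundant tag: gAGGAGGCcatagtggcaactgt
miR-204 3′ arm, most abundant tag: gCTGGGAAggcaaagggacgt
The 5′ end was uniform: 99.2% of the counts of miR-448 3′, 99.9% of miR-1298 5′, 96.1% of miR-1298 3′, 98.7% of miR-1912 3′, 99.7% of miR-204 5′ and 96.6% of miR-204 3′ began at the RefSeq start. miR-764 3′ was the exception. Of its 431 counts 92.1% began 1 nucleotide before the RefSeq start, which shifts nucleotides 2 to 8 from GGAGGCC to AGGAGGC. The RefSeq form itself had 16 counts.

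The 3′ ends varied more. The RefSeq form of 22 nt made up 6.67% of the counts of miR-448 3′ and 3.64% of those of miR-1298 5′, whose leading tags were 21 nt (60.6%) and 20 nt (59.7%) long. It made up 75.8% of the counts of miR-204 5′, 57.7% of miR-204 3′ (21 nt) and 66.4% of miR-1912 3′. For miR-448 3′, the mean tag length was 19.4 nt in NT-1 and between 20.5 and 20.8 nt in the other libraries of course 1, and between 20.8 and 21 nt in the second. It was longer in course 2 at 6 of 6 time points, by 0.468 nt on average (exact permutation test, two-sided, p = 0.03125, the smallest this design allows). Without the pair of untreated libraries the difference was 0.262 nt. The mean length of all miRNA reads moved the same way, from 19.6 to 20.6 nt in the first to 20.9 to 21.2 nt in course 2. Its part in the length of miR-448 was not tested.

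The tags of miR-1298 5′ did not lengthen with the rest, an observation made after the values were seen and not tested. Tags of 20 nt made up 32.3% to 52.6% of its counts in course 1 and 80.0% to 100% in the second, and the ranges do not overlap. Tags of 21 nt made up 42.9% to 62.1% and 0% to 8.33%. In 6h-2 this rests on 11 counts, of which all were 20 nt long (Wilson 95% interval 74.1% to 100%). In 24h-2 it rests on 1931 counts, of which 86.5% were 20 nt long.

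**Figure D5:**
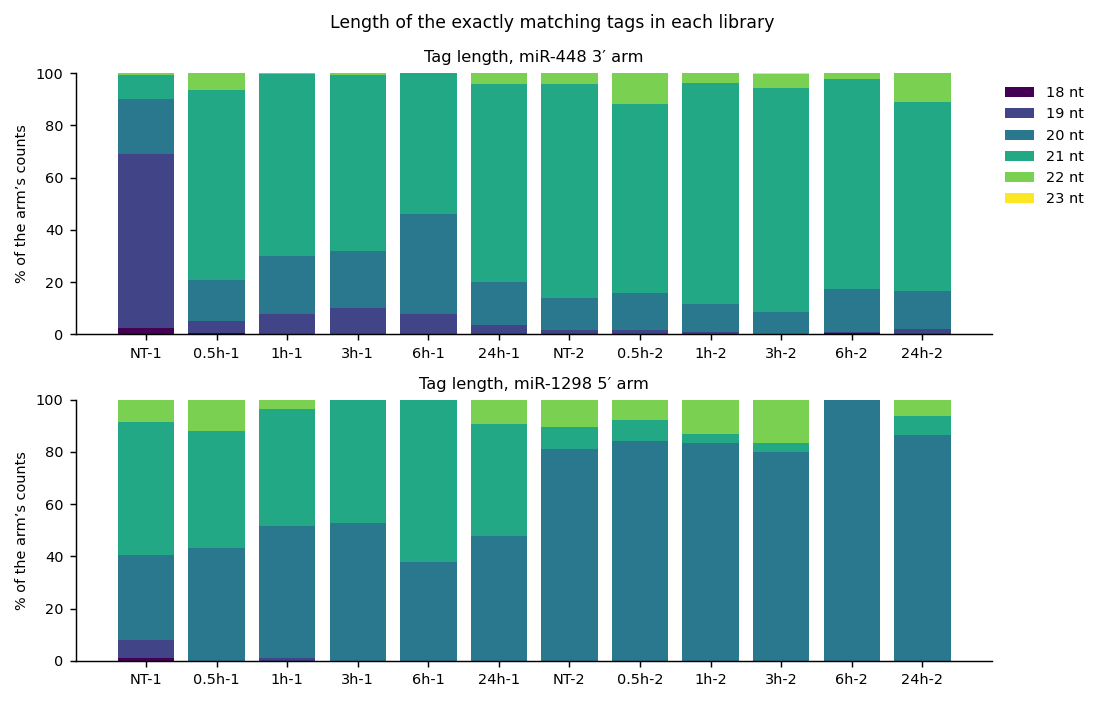
Share of the counts of the miR-448 3′ arm (top) and the miR-1298 5′ arm (bottom) by tag length, in percent, in each library. Tags of 19 nt take 66.6% of miR-448 in NT-1, and tags of 20 nt take at least 80.0% of miR-1298 in course 2 but at most 52.6% in the first.

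Exact matching leaves out tags with other bases at the 3′ end. Of the reads whose first 18 nt matched the arm, 76.3% matched in full for miR-448 3′, 78.3% for miR-1298 5′, 88.1% for miR-1298 3′, 78.1% for miR-764 3′, 88.8% for miR-1912 3′, 91.8% for miR-204 5′ and 87.7% for miR-204 3′. For miR-448 3′, 12.1% of these reads ended in a single T that the hairpin does not have there, 3.99% in such an A, 2.56% in a C and 0.141% in a G. The printed tag that ends in T had 3934 counts and was found in all 12 libraries. The full-match share of miR-1298 5′ was 78.4% to 88.5% in course 1 and 53.6% to 73.8% in the second. These ranges do not overlap either, and no test was made. For miR-448 3′ the shares were 71.2% to 86.5% and 68.6% to 76.9%.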

How the data were processed

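Reads came from an Illumina Genome Analyzer IIx after PCR without molecular identifiers. The authors discarded those lacking insert or adapter (miR-Intess pipeline) and deposited, per library, raw tag counts for inserts of at least 18 nt, neither aligned nor normalized.

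From these counts, a tag was assigned to a miRNA when its whole length matched a hairpin of GENCODE M21 (GRCm38, later than the NCBI assembly 37 that the study used) and to the arm on which its midpoint lay. The 470 arms that reached 10 counts in 2 or more libraries, 7 of them of members, were tested with edgeR 4.0.16 in R 4.3.3, DESeq2 1.42.0 being an alternative, at an adjusted p of 0.05. All 12 libraries entered 1 fit of 6 groups, and the time point was a factor for the time courses. Ratios, arm shares and tag lengths were tested by exact permutation in Python 3.11.15 (numpy 2.4.6, pandas 2.3.3, scipy 1.17.1), and figures drawn with matplotlib. The tests were tested on simulated data. For the ECS fit, tried at 24 h only, the simulated counts held no difference between the time courses, unlike those of the libraries.

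Library names come from the labels' time and replicate number. The numbers pair the libraries, since the study states that they mark the time course, and same-numbered libraries deviated together from their time point's mean (mean correlation 0.523, 0.316 to 0.785 over 15 pairs of time points). No pair of libraries agreed within sampling noise.

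The members and the lists were chosen with earlier results of these data known. Named are all arms of the members, the other miRNA genes in Htr2c and the 5 other arms most like miR-448. Alternatives were other scalings, DESeq2, no filter, tags that match 1 miRNA, matching of the first 18 nt, other pseudocounts, the replicate block, fits of only the groups compared or without the time point, and leaving out libraries.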

Additional observations from a re-analysis of the deposited data

Results flagged for a closer look

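Within each time course, 32 groups of 6 libraries were searched for a library set apart by Dixon's test at the 95% level, and 10 stood out. Chance alone gives about 1.6 where values follow a normal distribution, whereas the levels entered as CPM without a logarithm. The members were also chosen from these same counts and for moving together, so that the number is a description and not a test. In the first time course NT-1 was set apart for miR-448 3′ (3705 CPM, others 244 to 880), miR-1298 3′ (135 CPM, others 19.5 to 37.7), miR-1912 3′ (62.9 CPM, others 0 to 6.26) and the mean tag length of miR-448 3′ (19.4 nt, others 20.5 to 20.8). The library 3h-1 was set apart for miR-1298 5′ (4151 CPM, others 47.1 to 470).

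In the second time course all 5 came from 24h-2. They were miR-448 3′ (4321 CPM, others 120 to 906), miR-1298 5′ (656 CPM, others 10.8 to 159), miR-1298 3′ (54.0 CPM, others 18.2 to 29.3), miR-204 5′ (222 CPM, others 25.7 to 53.5) and miR-204 3′ (262 CPM, others 14.0 to 81.0). These arms share libraries, and the tests are not independent of one another.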

How the results depend on the processing

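No member arm was called against untreated mice under any alternative, the replicate block included (0 of 7 arms at each time, 0 of 12 without the filter and 0 of 8 with the first 18 nt), whereas over all arms DESeq2 called 1 at 0.5 h and 2 at 3 h, and edgeR without the filter 1 at 3 h. Between the time courses, the count of 1 member called became 3 with DESeq2, 2 without the filter and 2 without the time point. With 1 library left out it was 0 to 2, and 0 without 1h-1, 3h-1, 1h-2 or 3h-2. Over all arms, 223 of 470 were called with DESeq2, 165 of 1064 without the filter and 191 of 470 without the time point. With 1 library left out, 101 to 155 arms were called. The member counts were not tested against these shares. For miR-204 5′ the adjusted p ranged from 0.000575 to 0.0671 over 19 alternatives (13 called). The log2 fold change of miR-448 3′ between the time courses was 0.069 without the time point, and -1.42 to 0.39 when 1 library was left out. That of miR-1912 3′ then ranged from -0.97 to 2.66. Against untreated mice, miR-448 3′ at 24 h was -0.79 with scaling by total counts, -0.20 with tags that match 1 miRNA and -0.20 with only the groups compared. Leaving out 1 library gave ranges of -3.07 to 0.53, -3.39 to 0.43, -4.59 to 0.30, -3.07 to 0.57 and -3.08 to 2.55 for the 5 times in order, and of -5.02 to 6.40 for miR-1298 5′ at 3 h. The 8 fold changes after ECS detailed in the text (miR-448 3′ at each time and 3 others) were picked after the values of all 35 had been seen. Over all 42 fold changes, 35 after ECS and 7 between the time courses, 96 of 833 alternative values had the other sign, 84 of them after ECS. The median r of the members ranged from 0.185 to 0.799 in the second time course. The difference in the minor-arm share of miR-448 was 0.042 with the first 18 nt. The replicate block changed no call against untreated mice. The causes of these shifts were not tested. Leaving out a pair of libraries gives values only, and a lone library was assumed to vary like the other groups. Counting error is small beside the spread between libraries for miR-448, while miR-1264 (31 counts in all) was too sparse to follow and miR-211 had 0 counts.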
